A study of Mus musculus with 102 samples.

Results

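The comparison described here is that of calorie restriction (CR) with control diet in adult mice at zeitgeber time 12 (ZT12), 12 h after the start of the zeitgeber day. It takes in every array labelled as adult and T12, namely 5 arrays of CR and 4 of control diet, which are 9 of the 102 arrays of the series. All animals were Per1-Venus BAC transgenic, on the C57B6/J background, so that mice of both diets carried the Venus reporter of Per1. The adult mice were 19 to 29 weeks old at the start and 47 to 57 weeks old at collection. The aged mice of the series were all older than 47 weeks at the start and older than 57 weeks at collection. These bounds are loose, as the age ranges of adult and aged mice did not overlap at either point. At both points the gap between the oldest adult and the youngest aged mice was longer than the 25 weeks of diet. Control animals ate control diet ad libitum, and CR animals received a calorie restricted diet in an amount 30% below what the controls ate. That diet lasted 25 weeks and followed 3 weeks of adaptation in which food was cut by 10% per week. The study measured both ages and diets at 6 times of day in epidermal stem cells of the epidermis, and arrays of the 5 other adult times and of aged mice at ZT12 (4 of CR and 4 of control diet) are used below as comparisons. The gate or sort behind the cell name, the sex of the mice and the hour of feeding are not given in the sources used here.

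In the molecular clock, Arntl and Clock or Npas2 form a dimer that binds E-box sequences and switches on its own repressors, the Per, Cry, Nr1d and Ciart genes, and output factors such as Dbp. The repressors then silence the dimer, so that levels of these transcripts rise and fall each day. In skin the clock times DNA replication and metabolism of keratinocyte stem cells, and in many tissues CR is known to shift or strengthen daily rhythms of transcripts.

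Values are log2 expression levels that the authors normalised with RMA, and a difference of 1 on this scale is a change of 2-fold. Differences are CR minus control, followed by the standard error (SE). They were tested over 13391 genes with limma in a model of all 24 groups of age, diet and time, and a gene passed at a Benjamini-Hochberg adjusted p under 0.05. The medians of the 9 arrays lay between 5.47 and 5.62 and their correlations over genes between 0.971 and 0.992, and with so few arrays a small difference is hard to detect. The 8 basal keratinocyte markers were well above the array medians, with means over the 9 arrays from 10.63 to 12.45, among them the keratins Krt5 (12.42) and Krt14 (12.45) and the integrin Itga6 (11.14). The suprabasal keratins Krt1 (11.82) and Krt10 (11.60) were bright too. Of 14 hair follicle stem cell markers 10 reached the filter for low values (4.73), among them Krt15 (11.96), Cxcl14 (10.93), Nfatc1 (8.99), Lrig1 (8.77) and Sox9 (7.58), while Cd34 (3.97), Lgr5 (4.08), Lhx2 (4.54) and Tbx1 (3.96) did not. Of the marker lists of other cell types, 5 of 8 melanocyte, 4 of 8 endothelial, 4 of 12 Langerhans cell and macrophage, 3 of 9 fibroblast and 0 of 8 T cell genes did not reach that filter. Xist was above the average of 3 Y-linked genes in 3 of the 5 CR and 2 of the 4 control arrays. The design text speaks of 4 mice per time and diet. The labels do not say which mouse or day an array came from, so the p-values measure the spread between arrays. The model estimates that spread over all 24 groups, whose median SD over genes ran from 0.12 to 0.36. At ZT12 the median SD was 0.18 for the adult CR arrays and 0.17 for the adult control arrays.

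At ZT12 the transcripts of 5 genes differed between the diets in adult mice. Cd59a, Stard13, Prxl2a and Amotl2 rose under CR and Ciart fell. These 5 are 0.0373% of the genes tested, with 0.0299% higher and 0.00747% lower. An unadjusted p under 0.05 was reached by 344 genes, or 2.57%, where chance alone gives 670. The median difference over all genes was 0.02, and the 5th and 95th percentiles were -0.20 and 0.27.

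Ciart encodes a repressor that binds the Arntl dimer and is itself switched on through E-boxes. Its promoter, and those of 3 of the genes that rose, are shown because they hold a letter motif of the clock in the 250 bases before to 50 after the start of the gene (RefSeq, build GRCm38.p6). Capitals mark the E-box, CACGTG, and the core letters of the ROR element, AGGTCA or its reverse complement, each searched on both strands. The bases beside this ROR core were not part of the search.
Ciart, chr3:95882179-95882478, minus strand: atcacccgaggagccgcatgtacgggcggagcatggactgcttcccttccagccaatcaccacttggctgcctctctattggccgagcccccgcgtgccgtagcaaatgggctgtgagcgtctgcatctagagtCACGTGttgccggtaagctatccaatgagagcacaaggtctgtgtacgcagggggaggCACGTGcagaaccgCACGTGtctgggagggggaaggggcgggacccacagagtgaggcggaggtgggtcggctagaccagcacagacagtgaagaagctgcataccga
Prxl2a, chr14:41013784-41014083, minus strand: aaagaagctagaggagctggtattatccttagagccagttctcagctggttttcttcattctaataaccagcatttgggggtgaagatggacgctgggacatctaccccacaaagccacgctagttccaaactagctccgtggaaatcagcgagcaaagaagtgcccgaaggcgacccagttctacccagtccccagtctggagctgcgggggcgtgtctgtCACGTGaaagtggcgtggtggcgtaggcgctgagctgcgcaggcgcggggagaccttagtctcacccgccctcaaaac
Stard13, chr5:151190144-151190443, minus strand: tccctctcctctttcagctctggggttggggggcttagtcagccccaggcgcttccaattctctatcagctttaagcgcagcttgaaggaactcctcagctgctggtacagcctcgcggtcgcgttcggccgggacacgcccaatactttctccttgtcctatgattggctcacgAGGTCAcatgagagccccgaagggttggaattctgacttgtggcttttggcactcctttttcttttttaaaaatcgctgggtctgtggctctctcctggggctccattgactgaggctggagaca
Amotl2, chr9:102717554-102717853, plus strand: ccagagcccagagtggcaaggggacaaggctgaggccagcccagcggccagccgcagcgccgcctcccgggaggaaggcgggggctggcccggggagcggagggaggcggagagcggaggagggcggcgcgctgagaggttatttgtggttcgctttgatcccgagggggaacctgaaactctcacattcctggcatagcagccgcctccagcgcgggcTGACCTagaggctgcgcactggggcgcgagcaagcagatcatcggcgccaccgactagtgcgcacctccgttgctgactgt
The Ciart window holds 3 E-boxes, whose first bases lie 116, 58 and 44 bases before the start. An E-box stands in 7.15% of the 32851 promoters in the table, and 0.0883% hold 3 or more. The window of Prxl2a holds 1 E-box, 28 bases before the start (the table gives 5 starts for this gene, of which the one farthest upstream is shown). Those of Stard13 and Amotl2 hold 1 ROR core each, 75 and 31 bases before the start, and this core stands in 16.3% of promoters. In the window of Cd59a none of these letters were found, and neither the E-prime box, CACGTT (4.68% of promoters), nor the D-box, TTATGTAA (0.938%), was found in any of the 5. The window of Dbp, which was searched in the same way, held none of these motifs either. A match is a description of letters and not of binding.

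Ciart stood at 6.98, 6.87, 7.02, 6.84 and 6.89 on the CR arrays and at 7.27, 7.66, 8.08 and 7.87 on the control arrays. Every CR array was below every control array, and the CR arrays lay close together. The mean was 6.92 ± 0.08 (SD, n = 5) under CR and 7.72 ± 0.35 (SD, n = 4) on control diet. The difference was -0.80 ± 0.15, a level 1.74-fold lower under CR (limma, adjusted p = 0.00523).

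Cd59a encodes a membrane protein that blocks the attack complex of complement. It reached 10.19, 10.29, 10.58, 10.28 and 10.22 under CR against 9.40, 9.32, 9.68 and 9.10 on control diet, with no overlap. The rise was 0.94 ± 0.17, or 1.91-fold (limma, adjusted p = 0.00419). A second probe set of the gene gave 1.03. Its neighbour Cd59b is a close copy, and the array signal of the 2 genes may not be fully separate.

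Stard13, a GTPase-activating protein with a lipid-binding START domain, was at 7.87, 7.33, 7.46, 7.53 and 7.30 under CR and at 6.78, 6.20, 6.59 and 6.40 on control diet. The lowest CR array was above the highest control array. This was the largest of the 5 differences, 1.00 ± 0.20 or 2.01-fold (limma, adjusted p = 0.0124). Amotl2, a junction scaffold of the angiomotin family that binds the Hippo effector Yap, was at 8.74, 8.49, 8.76, 8.74 and 8.20 under CR and at 7.80, 7.78, 7.98 and 7.65 on control diet. Here too the diets did not overlap, and CR array 5 came closest to the controls. The rise was 0.78 ± 0.17, or 1.72-fold (limma, adjusted p = 0.0300).

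Prxl2a, a peroxiredoxin-like redox protein, was at 10.53, 10.70, 10.55, 10.53 and 10.39 under CR and at 10.07, 9.60, 10.23 and 9.41 on control diet. The control arrays were spread more widely (SD 0.38, n = 4) than the CR arrays (SD 0.11, n = 5), with no overlap. The rise was 0.71 ± 0.15, or 1.64-fold (limma, adjusted p = 0.0300), and the second probe set of the gene gave 0.99.

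**Figure D1:**
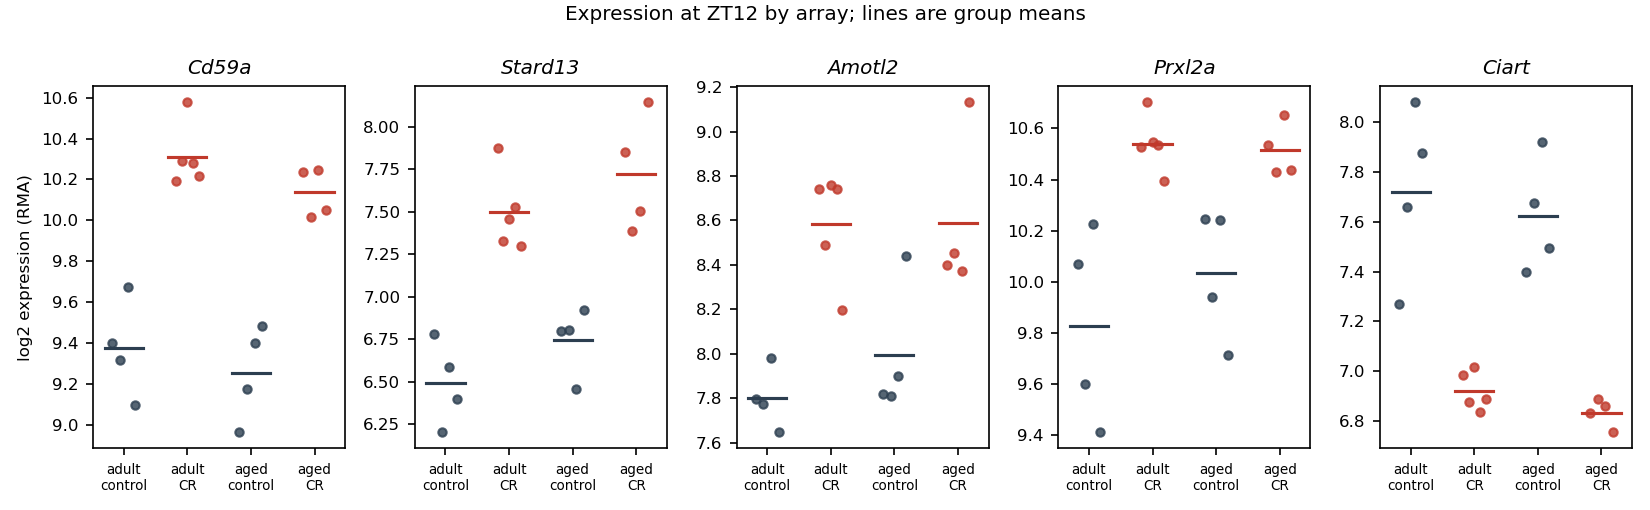
Log2 expression of the 5 genes at ZT12, with 1 point per array and a line at the mean of each group, for adult and aged mice on control diet or CR. In adult mice no CR array overlaps a control array, as for Cd59a with 10.19 to 10.58 against 9.10 to 9.68.

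The count of 5 rested on few arrays. It was 0 without control array 4, 2 without CR array 1 or control array 2, and 3 without CR array 2, 3 or 4. Cd59a lost its call without control array 4, Ciart without control array 3 or 4, and Stard13 without CR array 1 or control array 2 or 4. Prxl2a and Amotl2 lost theirs without CR array 1, 2, 3 or 4 or control array 2 or 4, and Amotl2 also without control array 1. With array quality weights it was 160 (63.1% higher under CR, against 80% of the 5).

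The next 15 genes by p, leaving out 1 transcript without a gene name of its own (4930550C14Rik, -0.68 ± 0.19), did not pass, with adjusted p (limma) from 0.0567 to 0.489, and are named here after their values were seen. Of these, 10 were higher under CR. Acsm1, a mitochondrial acyl-CoA synthetase, gave 0.88 ± 0.20, and its arrays ran from 5.76 to 6.83 under CR and from 5.26 to 5.64 on control diet. Tns3, a tensin of focal adhesions, gave 0.85 ± 0.20, with 8.28 to 8.53 against 7.36 to 7.76. A second, dimmer probe set of Tns3 gave 0.04 ± 0.17. Lifr, a cytokine receptor, gave 0.99 ± 0.26, and Spock2, a matrix proteoglycan, had the largest value of the 15 with 1.22 ± 0.34. Further probe sets of Lifr gave 1.09 and 0.98, while a second, dimmer probe set of Spock2 gave 0.28 ± 0.12. The epithelial transcription factor Ovol2 gave 0.91 ± 0.26. The others were Esyt3 (0.62), a tether of the endoplasmic reticulum, Rtn2 (0.66), a reticulon, Cyfip2 (0.60), a subunit of the actin-regulating WAVE complex, Duoxa1 (0.52), a maturation factor of dual oxidase, and the small GTPase Rhou (0.51).

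Lower under CR, without passing, were the other 5 of them. Antxr2, a receptor that binds matrix proteins, gave -0.70 ± 0.18, with 7.70 to 7.98 under CR and 8.42 to 8.63 on control diet. The metalloreductase Steap4 gave -0.83 ± 0.23, the basement membrane protein Frem2 -0.67 ± 0.18, the neurotrophin receptor Ntrk2 -0.59 ± 0.17 and the adhesion protein Pgm5 -0.37 ± 0.10. The diets did not overlap for 11 of these 15 genes. As the genes were chosen by p from these same arrays, this separation is no added support. Over all genes, groups without overlap made up 1.19% (higher under CR) and 0.597% (lower).

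Of the clock, 19 genes of 3 lists could be tested, and Ciart alone passed, where 0.0373% of all genes did. The other 18 had values on both sides of 0, and 4 of the 23 listed genes are not analysed here. Dbp, an output factor that drives other rhythmic genes, was at 8.02, 7.77, 8.28, 7.83 and 7.40 under CR and 8.59, 8.95, 9.11 and 7.83 on control diet. Control array 4 lay among the CR arrays. The difference of -0.76 ± 0.29 had an unadjusted p of 0.0120 (limma, adjusted p = 1.00).

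Among the repressors, the list median was -0.16 (-0.25 to -0.10 over the alternatives), with 3 genes above and 5 below 0. Per3 gave -0.35 ± 0.30, Bhlhe40 -0.29 ± 0.25, Nr1d2 -0.22 ± 0.20, Cry2 -0.11 ± 0.18 and Cry1 0.43 ± 0.34. Per1, the gene of the reporter, gave 0.04 ± 0.23 and Per2 gave 0.08 ± 0.18. The list of activators (median 0.11, or 0.03 without control array 2) had 5 of 5 above 0, and it also holds Nfil3 (0.07 ± 0.28), known as a repressor. Arntl was at 8.04, 6.01, 6.98, 8.63 and 7.54 under CR and 6.92, 5.73, 6.16 and 7.90 on control diet. Arrays of both diets ranged over more than 2 log2 units, and the difference was 0.76 ± 0.44. A second, dimmer probe set of Arntl gave 0.70 ± 0.20 without overlap, at 6.82, 7.03, 6.64, 7.01 and 6.69 under CR and 5.99, 5.91, 6.28 and 6.38 on control diet (limma, unadjusted p = 0.000992), and did not pass with each probe set tested on its own. Npas2 gave 0.17 ± 0.15, and its second probe set 0.79 ± 0.35 (unadjusted p = 0.0268). Clock gave 0.11 ± 0.20, with 3 further probe sets from -0.13 to -0.04, and the nuclear receptor Rora 0.08 ± 0.14. The output list had a median of 0.03, which was below 0 under 4 of 24 alternatives (both kinds of array weights, and without CR array 1 or control array 2) and ranged from -0.05 to 0.12, with Usp2, a ubiquitin protease, at 0.50 ± 0.32, Hlf at 0.17 ± 0.18, Tspan4 at 0.11 ± 0.13, the mitotic brake Wee1 at -0.05 ± 0.17 and Tef at -0.10 ± 0.15. The values of Per1, Per2, Clock, Rora, Nfil3 and Wee1 turned sign under 1 or more of the alternative settings.

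**Figure D2:**
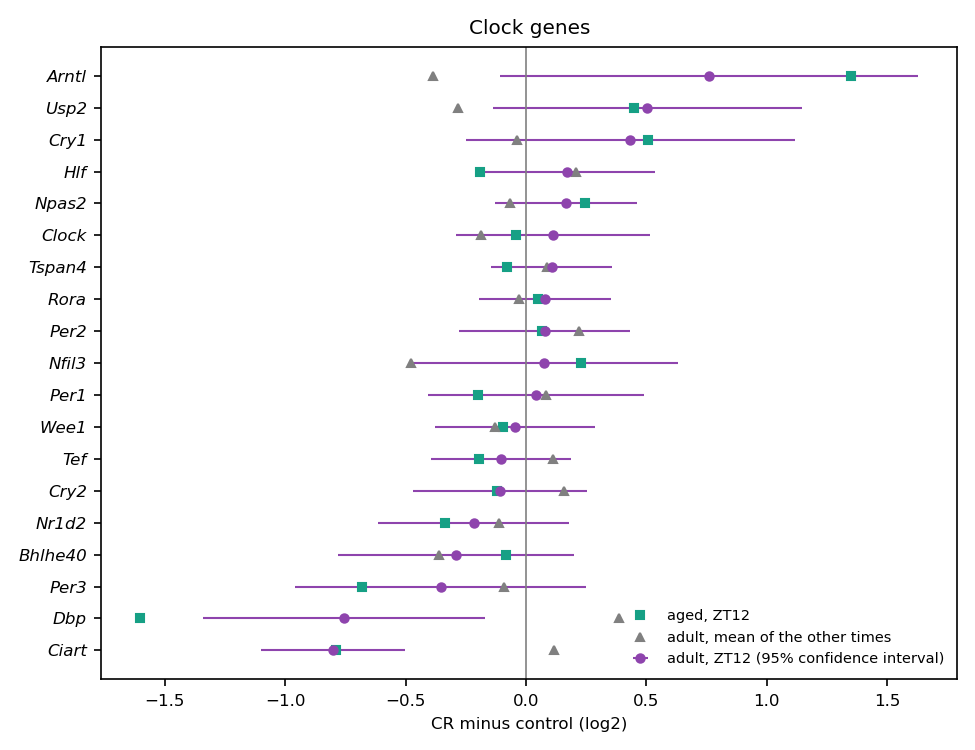
CR minus control (log2) for the 19 clock genes: circles are adult mice at ZT12 with 95% confidence intervals, squares aged mice at ZT12 and triangles the mean of the 5 other adult times. The interval of Ciart, -1.10 to -0.50, lies below 0, while its mean at the other times is 0.12.

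The diet difference at ZT12 was then set against the mean of those at the 5 other adult times, which share no array with it. Ciart was the single gene that passed, at -0.92 ± 0.16 (limma, adjusted p = 0.00419), or 0.00747% of genes, and 269 genes had an unadjusted p under 0.05. On control diet its mean was 6.54 at ZT0, 7.72 at ZT12 and 7.07 at ZT16. Under CR it was highest at ZT8, at 7.77, and was 6.92 at ZT12. The difference was 0.50 ± 0.14 at ZT4 and 0.60 ± 0.17 at ZT8, and at ZT16 it was -0.27 ± 0.15. Quantile normalization over again (adjusted p = 0.111), the replicate number as a block (0.179) or leaving out control array 3 (0.225) or 4 (0.0687) ended this call, over a range of 3.86e-08 to 0.225 among the alternatives.

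For the 4 genes that rose, the value against the other times did not pass. It was 0.67 ± 0.18 for Cd59a, 0.80 ± 0.22 for Stard13, 0.60 ± 0.17 for Prxl2a and 0.51 ± 0.18 for Amotl2 (limma, adjusted p = 1.00 for each). Stard13 under CR had a mean of 7.50 at ZT12 and of 6.46 to 6.93 at the other times, while its control means ran from 6.24 to 6.68 over the day. Amotl2 was higher under CR at all 6 times, by 0.16 to 0.37 at the other 5. Cd59a passed at ZT0 as well (0.74 ± 0.17, adjusted p = 0.00634), where 6.63% of all genes passed, and was at -0.31 ± 0.17 at ZT20.

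**Figure D3:**
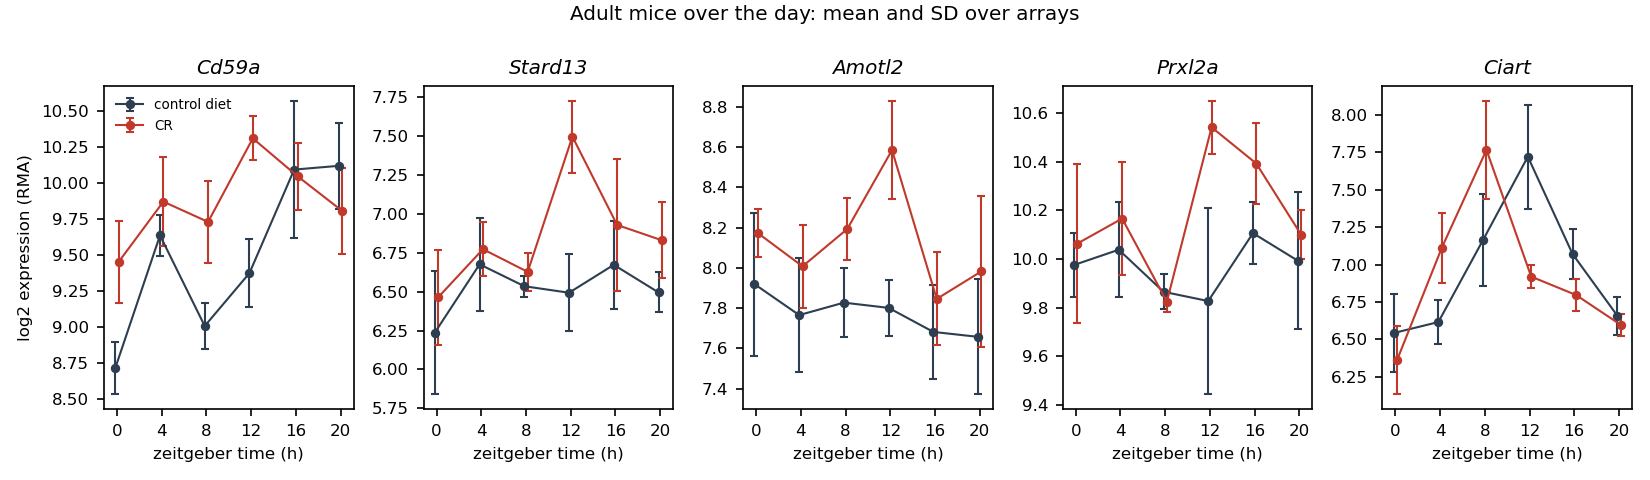
Mean log2 expression ± SD over arrays of the 5 genes in adult mice against zeitgeber time (h), for control diet and CR (3 to 6 arrays per point). Ciart is highest at ZT12 on control diet (7.72) and at ZT8 under CR (7.77).

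Aged mice at ZT12, other animals on the same diets, gave the same direction for the 5 genes. Ciart fell by 0.79 on the log2 scale (SE 0.16, limma, adjusted p = 0.00959), and Cd59a rose by 0.88 ± 0.18 (adjusted p = 0.00959) and Stard13 by 0.98 ± 0.21 (adjusted p = 0.0285). Prxl2a, at 0.48 ± 0.16, and Amotl2, at 0.60 ± 0.18, did not pass there. For Ciart the aged CR arrays were at 6.83, 6.89, 6.86 and 6.76 and the aged controls at 7.40, 7.68, 7.92 and 7.50, again without overlap. In aged mice 11 genes passed (0.0821%), so the 3 shared genes are 60% of the adult and 27.3% of the aged calls.

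The 20 genes described above (the 5 that passed and the next 15) had the same sign in aged mice in 20 cases, and 19 of these had an unadjusted p under 0.05 there. The exception was Pgm5, at -0.04 ± 0.10. Of the 344 adult genes at an unadjusted p under 0.05, 87.5% had the same sign in aged mice, against 56.3% of all genes. Among the 19 clock genes 15 did. Dbp passed in aged mice (-1.60 ± 0.31, limma, adjusted p = 0.00745), as did Antxr2 (-1.17 ± 0.19, adjusted p = 0.000663) and Steap4 (-1.08 ± 0.24, adjusted p = 0.0467).

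**Figure D4:**
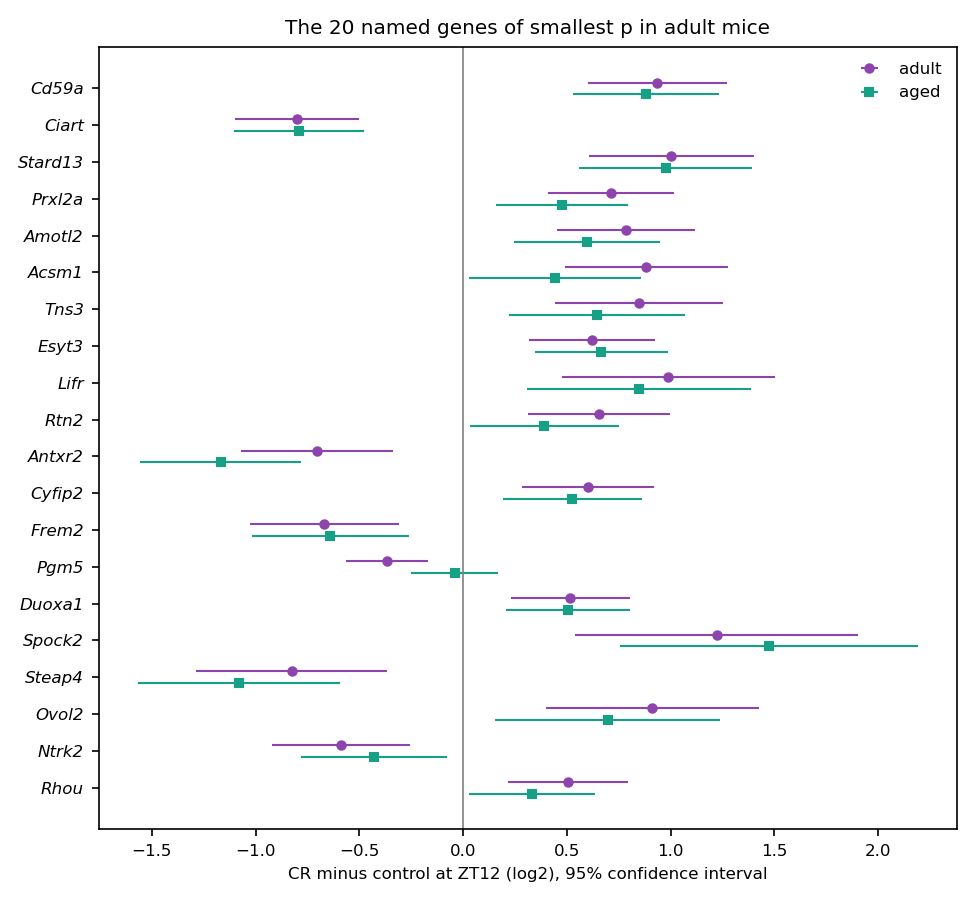
CR minus control at ZT12 (log2) with 95% confidence intervals for the 20 named genes of smallest p in adult mice (1 Rik transcript left out), in adult (circles) and aged (squares) mice. The points of both ages lie on the same side of 0 for all 20, with Pgm5 at -0.37 and -0.04.

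No gene passed the test of the adult against the aged difference (limma, 0 of 13391, or 0%, with 101 at an unadjusted p under 0.05). The difference between the ages was 0.06 for Cd59a (95% confidence interval -0.43 to 0.54), -0.01 for Ciart (-0.44 to 0.42) and 0.03 for Stard13 (-0.55 to 0.60). For Dbp it was 0.85 (-0.01 to 1.70). The smallest p values, none past the threshold, belonged to the glucose transporter Slc2a6 (-0.45), the calcineurin regulator Rcan3 (0.91), Tefm (0.61), a mitochondrial transcription factor, Ankrd6 (0.45) and Cyp27b1 (0.41), which makes active vitamin D.

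Of the 30 pathway lists 29 had no gene past the threshold, and list medians lay between -0.17 and 0.21. Among the 434 list genes tested, Ciart was the 1 that passed, and 17 had an unadjusted p under 0.05. Over all genes tested the shares were 0.0373% and 2.57%. The DNA replication list had the lowest median, -0.17, with 25 of 28 genes below 0, beside a median of 0.02 over all genes, of which 54.8% were above 0. The mean over the members of this list overlapped between the diets. It ran from 7.81 to 8.53 over the CR arrays and from 8.16 to 8.38 over the control arrays. Over the 24 alternatives the replication median ranged from -0.26 (without CR array 2) to -0.09 (without CR array 5 or with the replicate block). Gins2, of the replicative helicase, ran from 8.85 to 9.74 over the CR arrays and from 9.68 to 9.82 over the control arrays. The diets overlapped through CR array 2, and the value was -0.48 ± 0.19. The helicase subunit Mcm2 gave -0.47 ± 0.28 without overlap, while Mcm5 gave -0.39 ± 0.26 and the S phase checkpoint kinase Chek1 -0.41 ± 0.19. In aged mice the replication median was -0.40, with 27 of 28 below 0, and over the 5 other adult times it was 0.04. The mitosis list had a median of 0.08, which was -0.01 without CR array 2, with Ttk at -0.29 ± 0.23 and Nusap1 at 0.28 ± 0.33.

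Among lists of metabolism, fatty acid oxidation and PPAR targets had the highest median, 0.21, with 15 of 20 genes above 0 and 0 past the threshold. The mean over members of this list ran from 8.20 to 8.66 under CR and from 8.09 to 8.22 on control diet. Eci2, an enzyme of unsaturated fatty acid breakdown, ran from 8.76 to 9.56 over the CR arrays and from 8.14 to 8.76 over the control arrays. The lowest CR array was just above the highest control, and the value was 0.61 ± 0.26. The carnitine carrier Slc25a20 gave 0.45 ± 0.26 and the trifunctional protein subunit Hadhb 0.36 ± 0.16. The median of this list was 0.08 without CR array 2 and 0.11 with array quality weights, and it was 0.06 in aged mice. Cholesterol synthesis had a median of -0.11 with 14 of 16 genes below 0, but -0.00011 with 8 of 16 below 0 without CR array 5 or with the replicate block, and -0.20 without CR array 1. Its members included Hmgcs1 at -0.38 ± 0.41 and Sqle at -0.17 ± 0.45. The mean over members of the cholesterol list ran from 6.94 to 7.66 under CR and from 7.28 to 7.63 on control diet. Glycolysis had a median of -0.10, which ranged from -0.22 without control array 1 to 0.00 without control array 4, and oxidative phosphorylation one of -0.05, which ranged from -0.11 without CR array 2 to 0.00 without CR array 5 or with the replicate block.

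Single members of other lists, picked after their values were seen, had larger values without passing. Fkbp5, which glucocorticoids induce, was at 9.46, 8.81, 10.02, 9.11 and 9.22 under CR and 7.58, 7.85, 8.77 and 9.21 on control diet, so that control array 4 lay among the CR arrays. Its value was 0.97 ± 0.35, in a list with a median of 0.10. Hes1, the Notch effector, gave 0.61 ± 0.21, the BMP target Id3 0.47 ± 0.17, Tgfb3 0.57 ± 0.22 and the glutathione transferase Gsta4 0.45 ± 0.15. The cell cycle inhibitor Cdkn1a gave 0.35 ± 0.14 without overlap, and Igfbp3, which binds insulin-like growth factors, -0.46 ± 0.16. Cldn4, a tight junction protein, gave 1.35 ± 0.61, with CR arrays from 5.24 to 7.99 and controls from 5.07 to 6.09. The hair follicle factor Sox9 gave 0.84 ± 0.39, in a list with a median of 0.08 and 6 of 10 genes above 0.

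**Figure D5:**
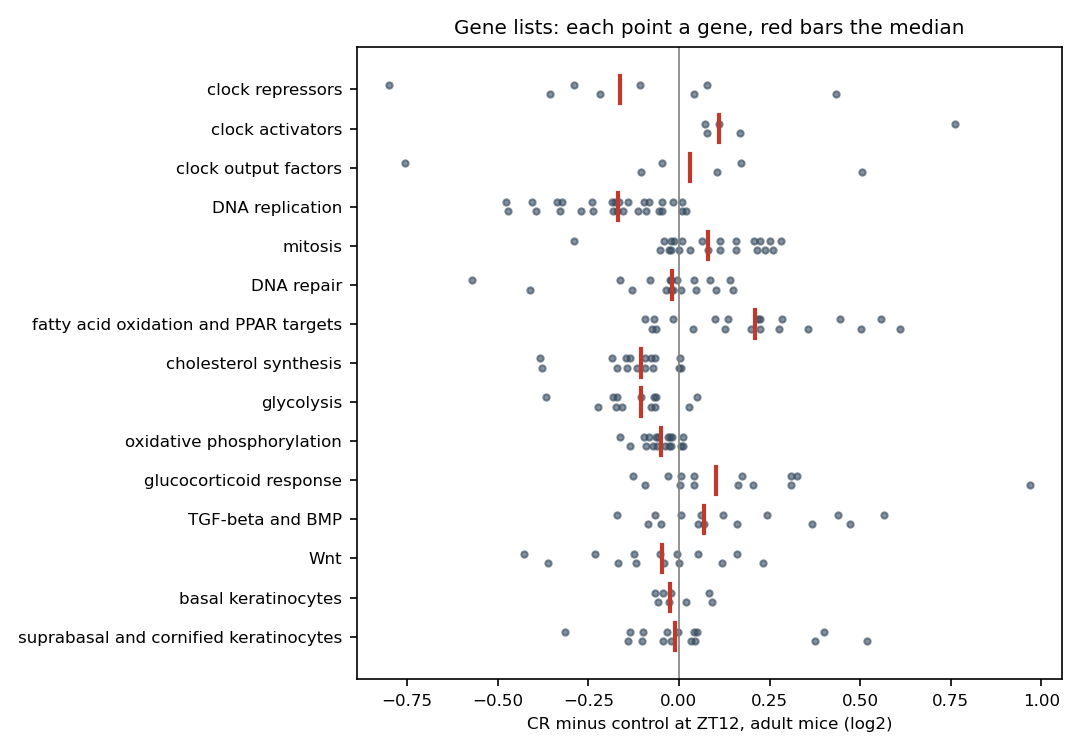
CR minus control at ZT12 in adult mice (log2) for each tested gene of 15 lists, with the median of a list as a red bar. Points of DNA replication lie mostly left of 0 (median -0.17) and those of fatty acid oxidation mostly right of it (median 0.21).

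Marker lists of 13 cell types had medians from -0.16 (erythroid cells) to 0.16 (melanocytes) and no gene past the threshold. The basal keratinocyte list had a median of -0.02 and the suprabasal list of -0.01. The mean log2 level over members of a list overlapped between the diets for basal keratinocytes. It ran from 11.66 to 11.81 under CR and from 11.56 to 11.81 on control diet. For fibroblasts it ran from 5.57 to 5.90 and from 5.75 to 6.05, and for Langerhans cells and macrophages from 6.64 to 6.91 and from 6.73 to 6.78. Epcam, an epithelial adhesion protein that Langerhans cells carry too, gave 0.52 ± 0.22. The Langerhans and macrophage gene Cd74 was at 6.30 under CR and 6.31 on control diet. The list of Langerhans cells and macrophages had 3 of 8 tested genes above 0 and 5 below. Those below included H2-Aa at -0.29, H2-Ab1 at -0.23 and H2-Eb1 at -0.17. In arrays of whole samples, fewer cells of a type and less RNA per cell cannot be told apart.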

How the data were processed

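RNA was amplified from 25 ng over 17 cycles and hybridised to Affymetrix arrays, per the labels' protocols. The deposited values are log2 levels that the authors made with RMA, per the submitters' processing notes; its version is not given in the sources used here. Of 45140 probe sets, 28898 carried 1 gene symbol, and the brightest stood for each of 17097 genes. Genes under the 30th percentile of probe set means were left out. Groups came from the sample labels. Differences were tested two-sided with limma 3.58.1 in R 4.3.3. The members and lists were chosen with earlier results of these data known. By rule, up to 14 called genes in each direction, the clock genes and called list members are named. For the tests of a difference, up to 8 called or else the 5 of smallest p are named. Other list members given by name did not pass, and were picked outside this rule with their values seen. Same-numbered arrays of the 2 diets had deviations correlated at -0.03 to 0.17 over 4 pairs, so numbers were not taken as pairs. The fixed list of Y-linked genes had 4, of which 3 were used and 1 is not analysed here. Alternatives covered the arrays fitted, filter, probe set, normalization, weights, a covariate of Xist and Y-linked genes, the replicate block and each array left out. Recovery was tested on simulated data over 13391 genes, with 200 genes changed in each of 10 draws. The noise was independent and normal, with 1 spread per gene for all groups. Fewer changed genes make the adjustment stricter, so recovery may be lower in the real data, where 5 genes passed. In the simulation the ZT12 test recovered 82.3% of changes of 0.9, 49.6% of 0.6 and 7.78% of 0.3. The test against the other times recovered 76.3%, 39.6% and 5.44%, and that against aged mice 50.7%, 15.3% and 1.4%.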

Additional observations from a re-analysis of the deposited data

Results flagged for a closer look

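Among the 5 CR arrays, array 3 stood apart for Cd59a, at 10.576 where the other 4 lay between 10.19 and 10.29; it lies farther from the controls than they do. Tspan4 on control array 3 was at 6.17, where the other control arrays lay between 5.91 and 5.95. These were 2 of 46 groups checked over 23 genes, and chance alone flags about 1 in 20. For Ciart the diet difference at ZT12 was lower than the mean of the other adult times by 0.92 on the log2 scale, a value of -0.917 (SE 0.16, limma, adjusted p = 0.00419).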

How the results depend on the processing

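The count of 5 genes at ZT12 stayed within 1.5 times under 15 of 25 alternatives. It was 160 with array quality weights (a fit that did not converge) and 143 with gene-by-gene weights, 11 with the arrays of ZT12 alone (3 shared with the 5) and 3 with each probe set tested on its own; the last 3 were chosen after seeing the data. With the 9 compared arrays alone it was 6, of which 2, Cd59a and Stard13, were shared. Leaving out 1 array gave 0 to 7. Quantile normalization over again called 6, of which 66.7% were higher under CR against 80% of the 5. With the replicate number as a block 5 were called, 4 of them shared, Prxl2a being lost. Of 24 alternatives, Cd59a passed in 22, Ciart and Stard13 in 21, and Amotl2 and Prxl2a in 14, and the 5 kept their direction in all of them. For ZT12 against the other times, the count of 1 was 0 with quantile normalization over again or the replicate block, 63 with weights, 69 with gene-by-gene weights and 0 to 1 when 1 array was left out. For adult against aged mice it was 0 under all 30 alternatives. The cause of these changes was not tested. The simulated recovery of small differences was low, so genes that missed the threshold are not shown to be equal.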

Other observations

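Emb, a membrane glycoprotein of the immunoglobulin family, was not among the genes that passed, and its brightest probe set gave -0.02 ± 0.15. A second probe set gave 1.31 ± 0.28, with 9.23, 9.04, 9.23, 9.15 and 9.02 under CR against 8.27, 7.83, 7.27 and 7.89 on control diet, and another gave 1.33 ± 0.31; neither overlapped between the diets, and both were picked out after their values were seen. With each probe set tested on its own, the adjusted p (limma) of these 2 was 0.0594 and 0.161. Of the 10025 probe sets without a gene name 0 passed in that fit (limma, 713 of 31550 probe sets at an unadjusted p under 0.05). Other genes that passed at ZT12 in aged mice had adult values of -0.37 for the Golgi mannosidase Man1c1, -0.32 for Timeless, which guards replication forks, -0.26 for Smpdl3b, -0.24 for the RNA-binding protein Hnrnpd and -0.12 for the one-carbon enzyme Mthfd1l.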
